A study of Mus musculus with 5 samples.

Results

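The 37 autophagy genes described here are the core machinery of macroautophagy: the initiation kinases, the lipid kinase complex, the membrane-supply proteins, the conjugation enzymes, the ATG8 proteins, the cargo receptors, and a lysosomal pair made of Tfeb and Lamp1. A gene was given every H3K9ac peak whose centre lay within 10 kb of any of its annotated transcript starts, which yielded 123 of 34286 peaks in DOP-treated cells and 130 of 33355 peaks in vehicle-treated cells. No peak was given to more than a single member. All 37 genes were found among the 22367 protein-coding genes of the annotation, 1 of them, Tfeb, under its older name Tcfeb.

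STHdh Q111 cells are conditionally immortalized striatal progenitors of the mouse, of genotype STHdhQ111/Q111 and strain C57BL/6, that carry mutant huntingtin. The 2 samples of group DOP received 4 mM 4-deoxypyridoxine, an inhibitor of sphingosine-1-phosphate lyase, in serum-free medium for 24 h. The 2 samples of group SST received the vehicle, DPBS, in serum-free medium over the same 24 h, and 1 IgG sample of serum-starved cells was not analysed here. All groups therefore share the mutant genotype and the serum withdrawal, and a single cell line stands for the genotype. Chromatin was immunoprecipitated with the antibody ab4441 against histone H3 acetylated at lysine 9, and 1 peak list per condition was deposited. Each list is 1 measurement per condition, so no replicate error exists for any value below, no test was made, and each difference is a difference between the lists. The deposited score of a peak has no defined scale, so it is given as the percentile it holds within its own list, with high percentiles for high scores. Scores summed over the peaks of a gene were ranked among the genes of the same list. A score of at least 100 was asked for only as an alternative. Distances are signed, negative upstream of the start. Markers of the cell type were checked in the same way: 4 of 7 neural progenitor markers, among them Vim and Sox9 but not Nes, Sox2 or Pax6, had peaks in each list. Markers of the striatal lineage had peaks at 6 of 8 genes in the DOP list and 4 of 8 in the vehicle list, and those of mature striatal neurons at 1 of 7 in each, where 57.7% and 56.9% of all protein-coding genes had one. Of the markers of other cell types, 1 of 4 for astrocytes and 1 of 3 for microglia had peaks in each list, those for oligodendrocytes did at 2 of 3 in the DOP list and 1 of 3 in the vehicle list, and neither of the endothelial genes did. The microglial gene was Aif1, with 4 DOP and 5 vehicle peaks and a highest peak at percentiles 98.1 and 94.3.

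In macroautophagy a membrane sac grows around cytoplasmic cargo, closes into an autophagosome and fuses with a lysosome, where the cargo is degraded. A kinase complex built on ULK1 starts the process, a phosphatidylinositol 3-kinase complex marks the growing membrane, a pair of ubiquitin-like conjugation systems attaches ATG8 proteins to it, and receptors tie the cargo to those proteins. Serum withdrawal is a classical stimulus of the pathway, and in Huntington's disease autophagy is studied as a route by which mutant huntingtin is cleared. Acetylation of H3 at lysine 9 is a mark of active promoters and lies mostly on the nucleosomes that flank the transcript start.

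Every autophagy gene carried the mark in both conditions. A peak lay within 10 kb of a start of 37 of 37 genes in the DOP list and of 37 of 37 in the vehicle list, whereas 57.7% of all protein-coding genes had a DOP peak and 56.9% had a vehicle peak. Of the 37 genes, 7 held more peaks in the DOP list, 12 held fewer and 18 held equal numbers. Among the 13272 genes that had any peak in the lists the shares were 32.5% with more, 28.5% with fewer and 39% with equal numbers, against 18.9%, 32.4% and 48.6% of the autophagy genes. The counts depended on the rule. With a window of 1 kb, 3 genes held more DOP peaks, 11 fewer and 23 equal numbers. No shares of all genes were taken for that window, so this split has no background beside it. With centres within 1 kb chained into clusters, 2 genes had more DOP clusters, 2 fewer and 33 equal numbers. In the 10-kb windows most differences were of a single peak, in 14 genes. The gap was of 2 or more peaks in favour of the DOP list at Atg2a and Gabarap (2 of 37 genes, background 9.37%), and of 2 or more in favour of the vehicle list at Atg14, Lamp1 and Rb1cc1 (3 of 37, background 7.85%). After chaining, each of these genes had equal numbers of clusters. The gap at Gabarap was also 0 with windows of 5 and 1 kb and with nearest starts only. Those at Atg2a and Atg14 were 0 in the top 50% of each list, and that at Atg14 also at scores of at least 100.

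The number of peaks in a single list depended on the rule for sharing. By any overlap, of the 123 DOP peaks, 11 overlapped no vehicle peak, or 8.94% (95% Wilson interval 5.07 to 15.3%), where 16.2% of all DOP peaks within 10 kb of a start did so. Of the 130 vehicle peaks, 15 overlapped no DOP peak, or 11.5% (7.12 to 18.2%), where the background was 13.3%. The numbers were 30 and 33 when a reciprocal overlap of 50% was asked for, and 2 and 2 when centres within 1 kb counted as shared. These intervals cover the counting of peaks only, and the peaks of a gene are not independent of each other. The peaks present in both lists had a median distance of 35 bp between the DOP centre and the nearest vehicle centre, close to the 33 bp of all such peaks. No list-only peak was found at 19 of 37 genes (51.4%), against 42.8% of all genes with a peak.

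**Figure D1:**
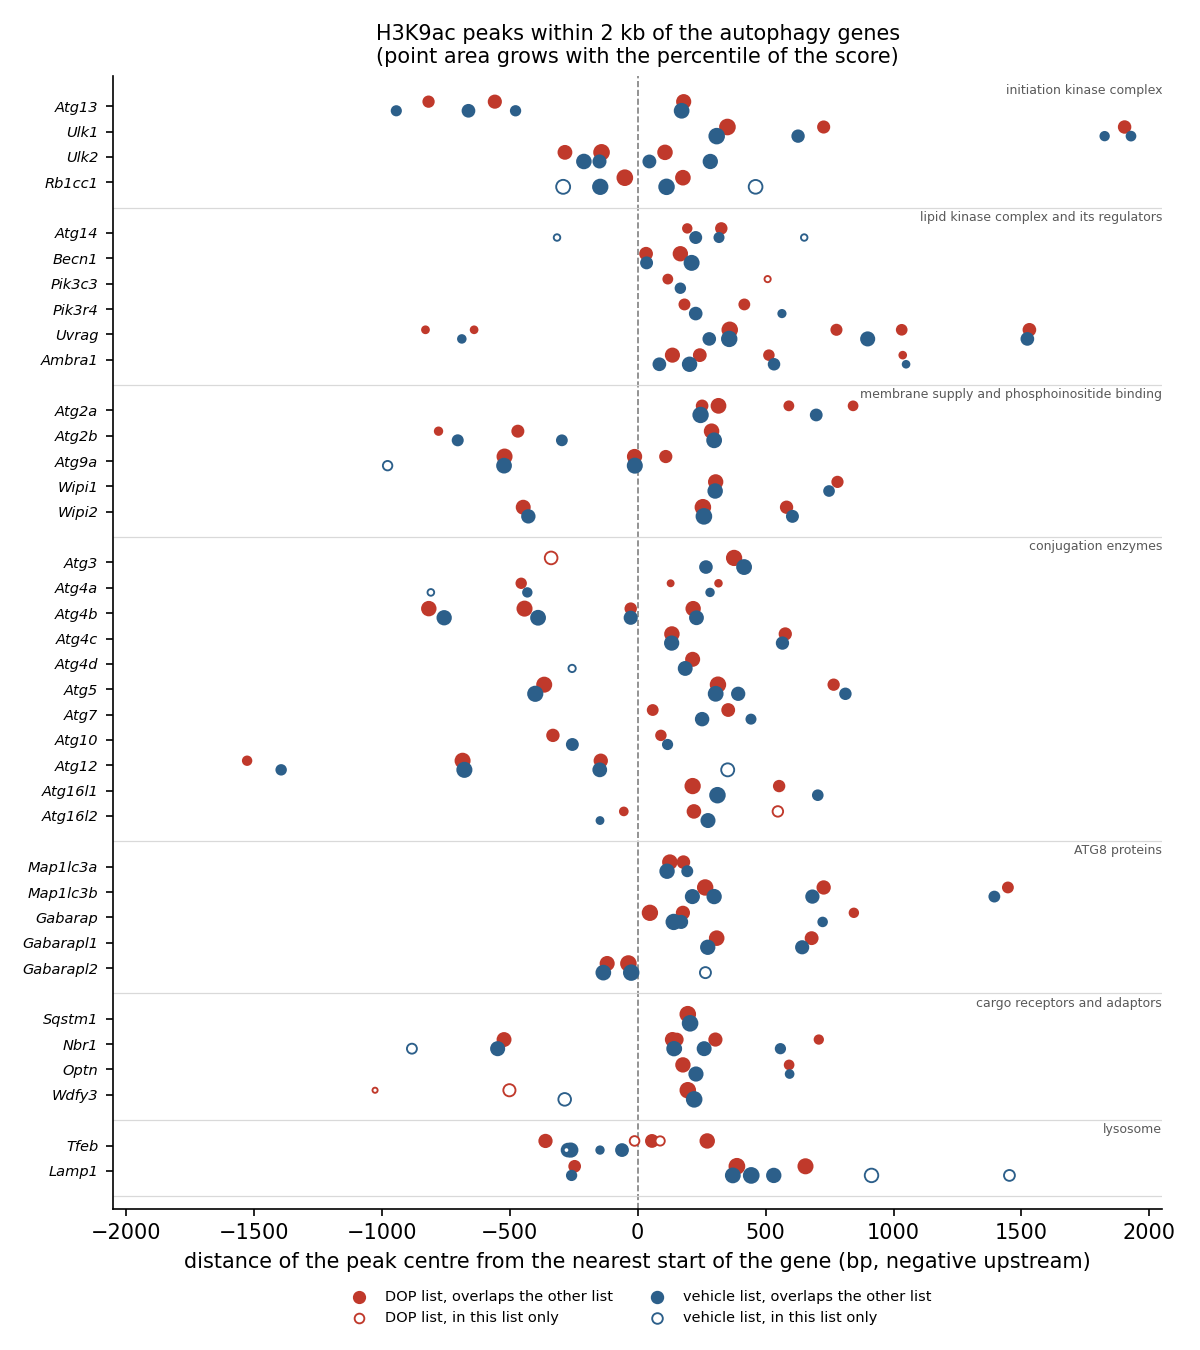
Peaks within 2 kb of each autophagy gene, by the distance of the peak centre from the nearest start of the gene in bp (x axis) and by gene within its role (y axis). Red points are DOP peaks, blue points are vehicle peaks, open points are peaks that overlap none of the other list, and larger points have a higher score percentile. Most red and blue points form pairs, and the 21 DOP and 18 vehicle peaks farther than 2 kb are not drawn.

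The peaks lay close to the starts, as did those of other genes. Within 1 kb of a start of their own gene lay 95 of the 123 DOP peaks and 105 of the 130 vehicle peaks, and the stretch from the start to 500 bp downstream alone held 48 and 50 (39% and 38.5%, against 35.2% and 36.3% of all pairs of a gene and a peak). Upstream of the start lay 45 of the DOP peaks and 49 of the vehicle peaks (36.6% and 37.7%, against 38.6% and 37.4%). For 30 of 37 genes in each list (81.1%) the highest peak that was nearest to the gene's own start lay 0 to 500 bp downstream of it, as for 76.6% of all genes with such a peak in the DOP list and 77% in the vehicle list. Measured from the nearest start of any gene, 87.8% of the DOP peaks and 89.2% of the vehicle peaks lay within 1 kb, next to 86.9% and 87.7% of all peaks near genes. Intronic centres were the most frequent in each list (66 of 123 and 76 of 130, or 53.7% and 58.5%, against 49.8% and 51.2% of all peaks near genes). In a 5′ UTR lay 24 and 20 centres (19.5% and 15.4%, against 13.1% and 13.2%). The GC content of the 200-bp peak intervals had a median of 59.5% in the DOP list and 61.2% in the vehicle list, against 60.5% and 61% over all peaks near genes.

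The sequences under the highest-ranked list-only peaks are given here, since each was present in a single list. They come from the mm9 assembly, read on the plus strand from 5′ to 3′, with CpG dinucleotides in capitals, and intervals that overlap a UTR are not shown. The Rb1cc1 interval upstream held 11 CpG and the one downstream 6, and the Lamp1 interval held 8.
Rb1cc1, vehicle list only, percentile 86.2, chr1:6204336-6204535: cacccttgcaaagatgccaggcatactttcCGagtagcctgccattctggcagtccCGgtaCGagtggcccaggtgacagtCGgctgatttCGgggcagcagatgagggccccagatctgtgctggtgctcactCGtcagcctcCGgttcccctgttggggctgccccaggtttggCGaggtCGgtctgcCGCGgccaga
Rb1cc1, vehicle list only, percentile 83.1, chr1:6205451-6205650: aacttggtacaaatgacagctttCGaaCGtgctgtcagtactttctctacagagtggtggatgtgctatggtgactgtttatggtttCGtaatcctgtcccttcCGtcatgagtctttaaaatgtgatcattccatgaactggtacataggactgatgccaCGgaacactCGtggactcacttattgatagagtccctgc
Lamp1, vehicle list only, percentile 80.2, chr8:13159950-13160149: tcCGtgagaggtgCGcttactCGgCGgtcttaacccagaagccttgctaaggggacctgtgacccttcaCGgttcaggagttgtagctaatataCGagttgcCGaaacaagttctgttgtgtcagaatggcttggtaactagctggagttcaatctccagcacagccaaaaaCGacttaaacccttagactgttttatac
Wdfy3, DOP list only, percentile 62.4, chr5:102499342-102499541: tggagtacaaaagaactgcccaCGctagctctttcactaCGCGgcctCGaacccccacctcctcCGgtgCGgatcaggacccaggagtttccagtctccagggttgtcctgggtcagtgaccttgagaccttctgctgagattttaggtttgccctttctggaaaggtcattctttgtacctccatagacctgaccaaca
Gabarap, at the neighbouring gene Dvl2, DOP list only, percentile 60.8, chr11:69814488-69814687: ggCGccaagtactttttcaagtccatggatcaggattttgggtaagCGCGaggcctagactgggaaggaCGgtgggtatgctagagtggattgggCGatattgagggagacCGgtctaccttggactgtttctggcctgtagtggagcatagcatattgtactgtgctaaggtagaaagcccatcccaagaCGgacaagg
Gabarap, at the neighbouring gene Rai12, DOP list only, percentile 59.4, chr11:69795556-69795755: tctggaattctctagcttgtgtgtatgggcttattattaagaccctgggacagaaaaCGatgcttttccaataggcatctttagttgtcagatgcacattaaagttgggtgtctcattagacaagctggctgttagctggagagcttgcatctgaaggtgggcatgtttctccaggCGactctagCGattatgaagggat

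The listed genes of the initiation kinase complex each held fewer DOP peaks when the whole lists were counted. Ulk1 and Ulk2 encode the kinases, and Atg13 and Rb1cc1 (FIP200) encode the subunits that hold them together. The 4 genes had 11 DOP peaks and 16 vehicle peaks. Ulk1, Ulk2 and Atg13 each had 3 against 4, and Rb1cc1 had 2 against 4. Fewer DOP peaks were found at 28.5% of all genes with a peak. Atg13 had 1 peak in each list when only peaks nearest to its own starts were counted, and after chaining the lists had equal numbers of clusters at each of the 4 genes, 2 at Ulk1 and 1 at the others. Atg101, a further subunit of the complex that is not among the 37 genes, had 4 peaks in each list, with 1 list-only peak in each, and 3 DOP and 4 vehicle peaks when only those nearest to its own starts were counted.

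Rb1cc1, on chromosome 1 from 6196278 to 6266729, showed a contracted set of peaks in the DOP list. Relative to a single annotated start, the vehicle centres lay at -654, -146, 113 and 461 bp, with percentiles of 86.2, 93.3, 96.2 and 83.1. The DOP centres lay at -50 and 177 bp, with percentiles of 98.1 and 83.6. The inner vehicle peaks overlapped the DOP peaks and the outer ones did not, so that the distance from the first to the last centre was 1115 bp in the vehicle list and 227 bp in the DOP list. The outer downstream vehicle peak and the DOP peak at 177 bp lay nearest to a start of the neighbouring gene 4732440D04Rik, so that 1 DOP peak and 3 vehicle peaks were nearest to a start of Rb1cc1 itself. Summed over its peaks, the score of Rb1cc1 stood at percentile 76.3 of all genes with a DOP peak and at percentile 94.2 of all genes with a vehicle peak.

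At the kinase genes a single DOP peak overlapped more than 1 closely spaced vehicle peak. Ulk2 had its highest DOP peak at -141 bp, at percentile 98.1, and this single interval overlapped 3 vehicle peaks, of which the highest reached percentile 82.5. Its summed score stood at percentile 84.5 in the DOP list and 77.4 in the vehicle list, although it had 1 peak fewer. Ulk1 kept its highest peak in place, at 351 bp and percentile 98.3 in the DOP list and at 309 bp and percentile 96.7 in the vehicle list. The vehicle peaks of Ulk1 at 1825 and 1928 bp lay under 1 DOP peak at 1903 bp. Atg13 had its highest peak at 180 bp (percentile 76.9) and 172 bp (percentile 84.5), and its other peaks were nearest to Harbi1, a gene that starts 276 bp away on the other strand.

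The peak of Ulk2 at 46 bp in the vehicle list was the shared peak that lay farthest from its DOP partner among those free of UTR sequence, at 187 bp. Its interval is shown for that shift, on the plus strand and with the 18 CpG in capitals.
Ulk2, vehicle list, percentile 60.3, chr11:61667859-61668058: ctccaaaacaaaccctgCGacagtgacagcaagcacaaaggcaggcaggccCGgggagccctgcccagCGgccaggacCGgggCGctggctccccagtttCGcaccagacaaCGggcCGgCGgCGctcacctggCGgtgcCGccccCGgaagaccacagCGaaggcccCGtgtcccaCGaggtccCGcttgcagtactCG

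The lipid kinase complex held 20 peaks in each list. Pik3c3 encodes the catalytic subunit that makes phosphatidylinositol 3-phosphate, Pik3r4 its regulatory subunit, and Becn1 the scaffold. Atg14 and Uvrag are alternative partners of Becn1, and Ambra1 is a further regulator. Becn1 (2 peaks), Pik3r4 (2) and Ambra1 (4) had equal numbers in each list, Pik3c3 had 4 DOP and 3 vehicle peaks, Uvrag had 6 and 5, and Atg14 had 2 and 4.

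The peaks of Atg14 ranked below the middle of each list. Its DOP centres lay at 194 and 327 bp with percentiles of 23.9 and 43.9, and its vehicle centres at 227 and 318 bp with percentiles of 49.5 and 29.7. The vehicle list added peaks at -315 and 651 bp, which overlapped no DOP peak and stood at percentiles 8.66 and 8.44. The difference of 2 peaks was therefore made of peaks from the bottom of the vehicle list, and it was 0 when peaks with a score under 100 were left out.

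Pik3r4 had the largest shift in rank among the 37 genes. Its highest peak lay at 183 bp with percentile 38.3 in the DOP list and at 227 bp with percentile 57.5 in the vehicle list, a difference of -19.2 percentile points. Over the 12375 genes with peaks in both lists this difference ran from -13.3 at the 5th percentile to 16.9 at the 95th. The summed score of Pik3r4 differed little, at percentiles 19.8 and 20.4 of all genes, since its other peak stood higher in the DOP list (37.5 against 13.9).

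Among the other genes of the group, Becn1 had its highest peak at percentile 80 in the DOP list (167 bp) and 88.5 in the vehicle list (211 bp). Ambra1 had peaks at 136 bp (percentile 76.4) and 243 bp (59.2) in the DOP list and at 85 bp (58.2) and 203 bp (80.3) in the vehicle list, an exchange of rank between neighbours. Uvrag kept a high peak at 360 bp (96.1) and 358 bp (94.6). The vehicle peak of Uvrag at 899 bp (75.8) overlapped a DOP pair at 777 bp (39.8) and 1032 bp (35.7). Pik3c3 differed from the others in that its highest peak lay upstream of its own starts, at -4512 bp (54.3) and -4578 bp (60.5), while the peak near its start stood at percentile 27.5 and 33.5. The additional DOP peak of Pik3c3 lay at 508 bp, overlapped no vehicle peak and stood at percentile 6.4.

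The membrane-supply genes held 17 DOP and 16 vehicle peaks. Atg2a and Atg2b encode lipid transfer proteins, Atg9a encodes the transmembrane protein of the vesicles that seed the membrane, and Wipi1 and Wipi2 bind phosphatidylinositol 3-phosphate. Atg2b, Atg9a and Wipi2 had 3 peaks in each list, Wipi1 had 2 DOP and 3 vehicle peaks, and Atg2a had 6 and 4.

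At Atg2a, on chromosome 19 from 6241668 to 6262335, each vehicle peak near the start had a pair of DOP peaks as its counterpart. The vehicle centres lay at 246 bp (percentile 94) and 698 bp (47.6). The DOP centres lay at 252 bp (45.7) and 316 bp (85.3), and at 591 bp (27.6) and 842 bp (26.6). None of these peaks was private to a list, and the remaining pair in each list was nearest to Ppp2r5b. Summed scores of Atg2a stood at percentile 89 in the DOP list and 86.3 in the vehicle list.

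Wipi2 had nearly the same pattern in both lists, with centres at -447, 255 and 582 bp in the DOP list and -427, 259 and 605 bp in the vehicle list. Its highest peak stood at percentiles 96.8 and 97.7. Atg2b had its highest peak at 289 bp (81.8) and 299 bp (85.5), and its further peaks were nearest to 4933433P14Rik, which starts close by on the other strand. Atg9a had a vehicle-only peak at -977 bp (32.4), and Wipi1 a vehicle-only peak at 2904 bp (8.23).

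**Figure D2:**
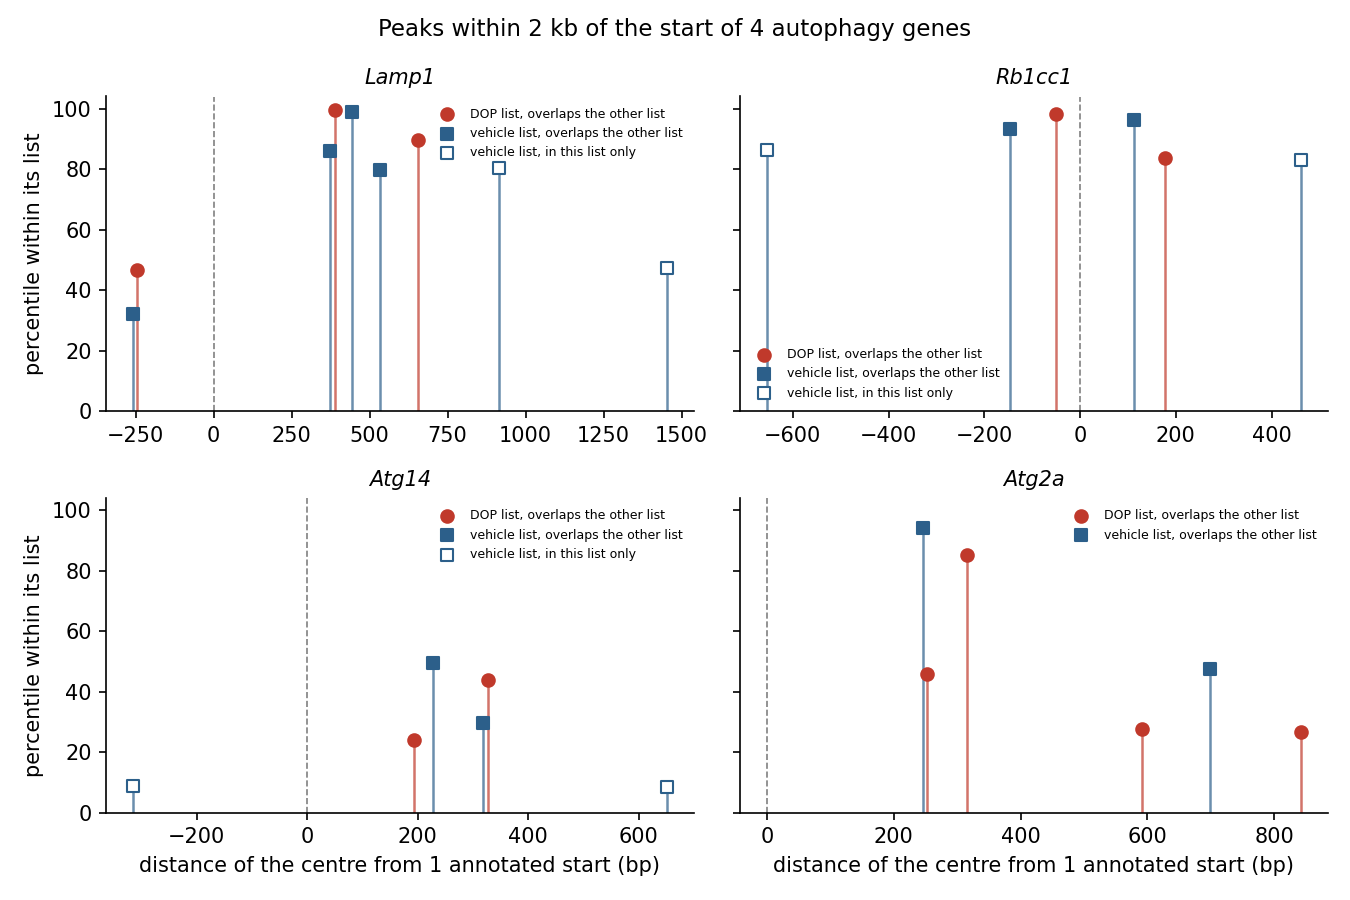
Score percentile within its own list (y axis) against the distance of the peak centre from 1 annotated start in bp (x axis) for Lamp1, Rb1cc1, Atg14 and Atg2a. Red circles are DOP peaks, blue squares are vehicle peaks, and open squares are vehicle peaks without an overlapping DOP peak, at 914 and 1453 bp for Lamp1, -654 and 461 bp for Rb1cc1, and -315 and 651 bp for Atg14.

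The 11 conjugation genes had similar numbers in the lists, with 30 DOP and 31 vehicle peaks and 6 genes at equal numbers. Atg7 encodes the activating enzyme of both conjugation systems, Atg3 and Atg10 the conjugating enzymes, Atg4a to Atg4d the proteases that process ATG8 proteins, and Atg12, Atg5, Atg16l1 and Atg16l2 the parts of the ligase. Atg7 (4 DOP and 3 vehicle peaks) and Atg16l2 (4 and 3) held more DOP peaks, whereas Atg4d (1 and 2), Atg5 (3 and 4) and Atg12 (3 and 4) held fewer. Atg3, Atg4c, Atg10 and Atg16l1 had 2 peaks in each list, Atg4a had 3 and Atg4b had 4.

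The ranks within this group covered a wide range. Atg5 and Atg16l1 stood near the top, with highest peaks at percentiles 94.9 and 91.3 for Atg5 and 92.9 and 96.2 for Atg16l1 in the DOP and vehicle lists. Atg4a, on the X chromosome, had the lowest highest peak of all 37 genes in each list, at percentile 33.1 and 23.8. That peak lay nearest to Psmd10, which starts 179 bp away on the other strand, and the best peak nearest to Atg4a itself stood at percentile 9.03 in the DOP list and 15.8 in the vehicle list. Its paralogue Atg4b ranked higher (89.5 and 85.8, again at the neighbouring start, that of Thap4), and Atg4c (81.2 and 78.3) and Atg4d (75.2 and 73.3) had their highest peaks within 250 bp downstream of their own starts. Atg7 (59.6 and 67.7) and Atg10 (54.5 and 49) had their highest peaks closer to the middle of the lists.

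Atg3 and Atg12 differed by list-only peaks of high rank. Atg3 had a DOP-only peak at -338 bp (percentile 69.3), nearest to the divergent gene Slc35a5, and the vehicle list instead had a second peak inside Atg3 at 267 bp (57.2). The highest peak of Atg3 lay at 377 bp (92.7) in the DOP list and at 416 bp (86.4) in the vehicle list. Atg12 had a vehicle-only peak at 352 bp (percentile 73) inside the gene, while its highest peaks lay upstream at -684 bp in the DOP list and -677 bp in the vehicle list (88.9 and 89.8), nearest to the divergent gene Ap3s1. A further pair nearest to Ap3s1 lay at -1526 and -1393 bp (23.8 and 33.5). The summed score of Atg12 stood at percentile 59.3 in the DOP list and 77.4 in the vehicle list, a difference of -18.1 points that no other autophagy gene exceeded. Across all genes with peaks in both lists that difference ran from -8.9 at the 5th percentile to 11 at the 95th. Other list-only peaks of the group ranked lower: at 548 bp of Atg16l2 (43.1) and -8706 bp of Atg7 (6.49) in the DOP list, and at -808 bp of Atg4a (9.48) and -256 bp of Atg4d (13.9) in the vehicle list.

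The genes of the ATG8 proteins, which are the ubiquitin-like proteins attached to the autophagosomal membrane, held 24 DOP and 23 vehicle peaks. Map1lc3a and Gabarapl1 had 2 peaks in each list and Map1lc3b had 5. The highest peak of Map1lc3a lay at 126 bp (percentile 82) and 115 bp (80), and that of Gabarapl1 at 309 bp (83) and 274 bp (79.2). Gabarapl2 had 4 DOP and 5 vehicle peaks, with a vehicle-only peak at 265 bp (48.9), and its highest peak lay at -36 bp (97) and -25 bp (95.3).

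Map1lc3b had the largest upward shift in the rank of its highest peak, from percentile 79 in the vehicle list to 95.2 in the DOP list, or 16.2 points. The DOP peak at 264 bp overlapped a pair of vehicle peaks at 214 bp (75.9) and 299 bp (79). The summed score of the gene stood at percentile 77.2 in the DOP list and 75.8 in the vehicle list, a difference of 1.42 points.

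Gabarap had the most peaks of any member, 11 in the DOP list and 9 in the vehicle list, and its 10-kb window takes in a crowded stretch of chromosome 11. Only 3 peaks in each list were nearest to Gabarap itself, and they matched, with the highest at percentile 93.8 and 93.9. The others were nearest to Rai12, Phf23 and Dvl2, and the 2 DOP-only peaks of the window, shown above, lay at Rai12 and Dvl2. With peaks counted only for the gene that owns the nearest start, the difference at Gabarap was 0.

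The cargo receptors and adaptors held 13 peaks in each list. Sqstm1 (p62), Nbr1 and Optn are receptors for ubiquitinated cargo, and Wdfy3 (ALFY) is an adaptor for protein aggregates. Sqstm1 had the same pattern in both lists, with its highest peak at 196 bp (percentile 97.3) and 205 bp (97.4) and another at -2179 and -2099 bp nearest to Mgat4b. Optn had its highest peak at 177 bp (79.7) and 228 bp (77). Nbr1 had 6 DOP and 7 vehicle peaks, of which 4 in each list were nearest to its own starts. The vehicle-only peak in its window, at -882 bp (37.5), was nearest to Brca1. The highest peak of Nbr1 lay at 136 bp (76.4) and 142 bp (79.4).

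Wdfy3 was the single gene of this group with list-only peaks in both lists. Both lists had the same main peak, at 196 bp (96.7) and 221 bp (96.9). Upstream, the DOP list had a centre at -501 bp (62.4) and the vehicle list a centre at -285 bp (68.2), 216 bp apart, so that the intervals just failed to overlap. The DOP list also had a peak inside the gene, at -1026 bp from an internal start and 130611 bp from the nearest vehicle peak. It stood at percentile 0.273, the lowest of all peaks near the 37 genes.

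At the lysosome end, Tfeb encodes a transcription factor of lysosomal and autophagy genes and Lamp1 a major glycoprotein of the lysosomal membrane. Tfeb had 5 peaks in each list, spread over several of its 14 annotated starts. Its highest DOP peak stood at percentile 80.8, at 272 bp from a start, and its highest vehicle peak at percentile 76.8, at -261 bp from another. DOP-only peaks of Tfeb stood at percentiles 30.8 and 34.4, and its vehicle-only peak, 15157 bp from the nearest DOP peak, stood at 2.66.

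Lamp1, on chromosome 8 from 13159135 to 13175338, had the largest difference in number, with 3 DOP and 6 vehicle peaks. The DOP centres lay at -246, 388 and 656 bp, with percentiles of 46.5, 99.5 and 89.5. The vehicle centres lay at -258, 372, 444, 532, 914 and 1453 bp, with percentiles of 32, 85.9, 98.9, 79.7, 80.2 and 47.2. The peak at 388 bp was the highest of all peaks near the autophagy genes in the DOP list, and its interval overlapped 3 vehicle peaks. The vehicle peaks at 914 and 1453 bp had no DOP counterpart, and the distance between the outer centres was 1711 bp in the vehicle list and 902 bp in the DOP list. The summed score stood at percentile 89.5 in the DOP list and 96.2 in the vehicle list. With centres within 1 kb chained into clusters, Lamp1 had 1 cluster in each list, as did Rb1cc1 and Atg14.

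**Figure D3:**
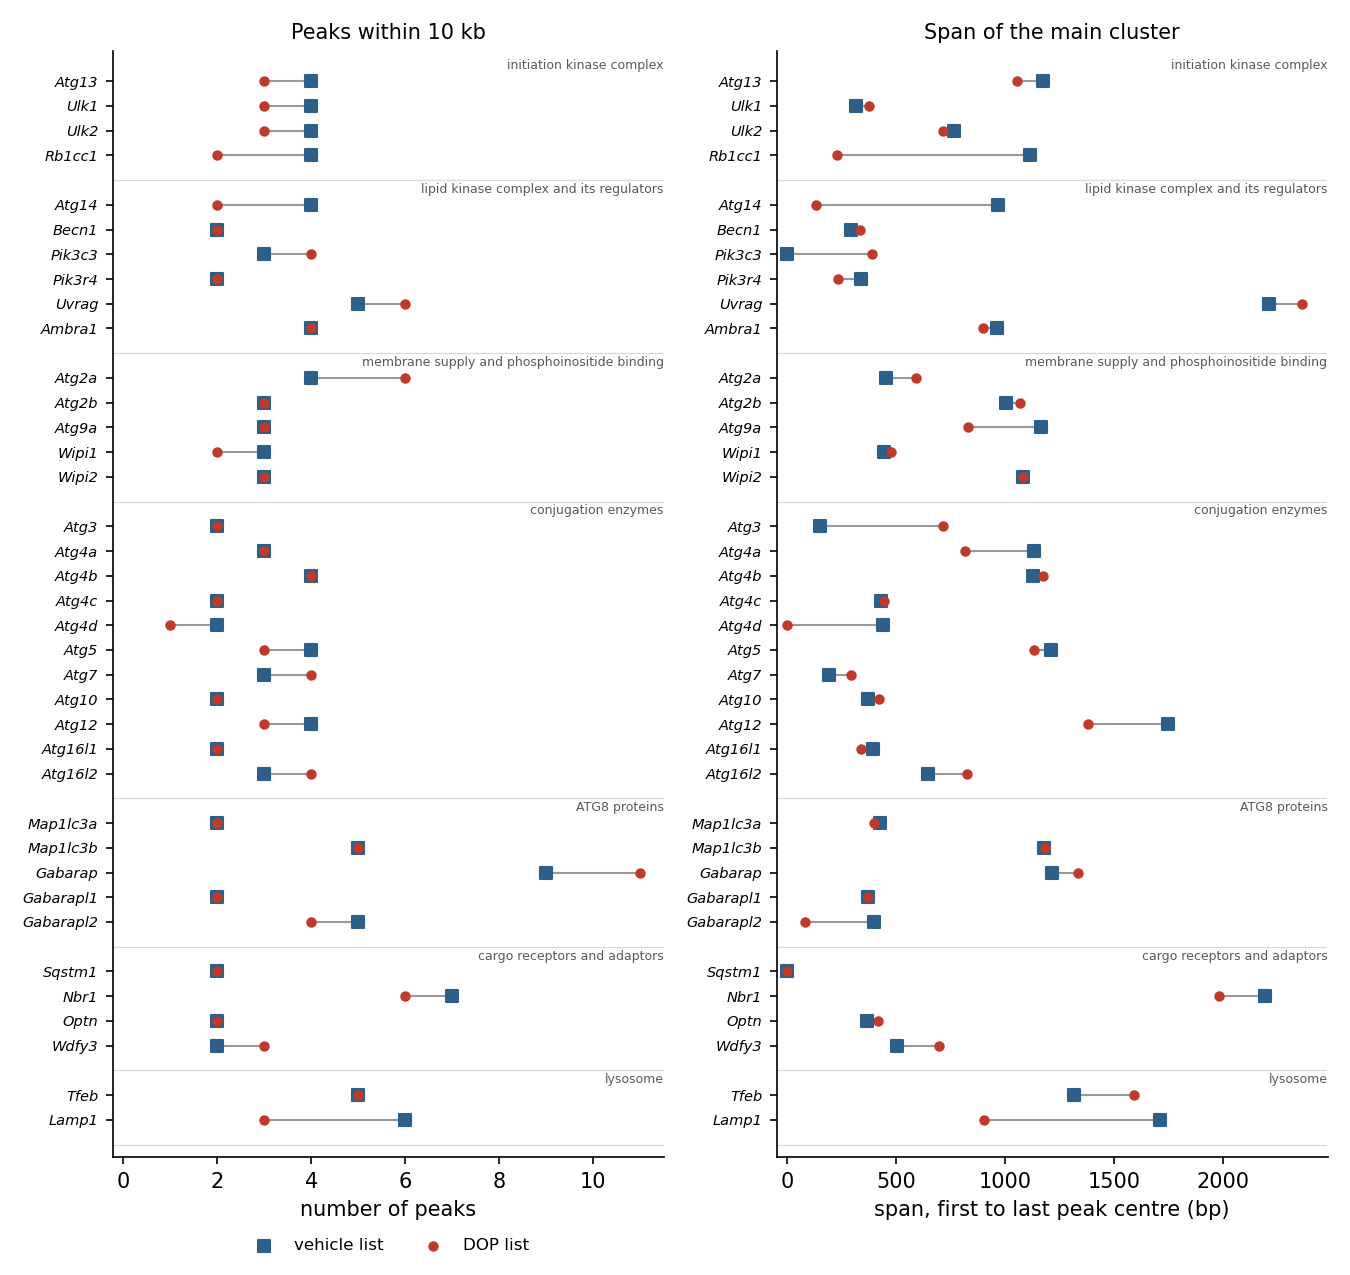
Number of peaks within 10 kb of each gene (left, x axis) and span of its main cluster in bp, from the first to the last centre (right, x axis), for the vehicle list (blue squares) and the DOP list (red circles), by gene within its role (y axis). The longest shifts to the left are those of Rb1cc1 (1115 to 227 bp), Atg14 (966 to 133 bp, which rests on vehicle peaks with scores under 100) and Lamp1 (1711 to 902 bp). Over all genes with a peak within 2 kb in both lists, the DOP minus vehicle difference ran from -681 bp (5th percentile) to 764 bp (95th).

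Some peaks of a list overlapped 2 or more peaks of the other. Of the 123 DOP peaks, 23 overlapped 2 or more vehicle peaks (18.7%, background 14.8%), and 22 of the 130 vehicle peaks overlapped 2 or more DOP peaks (16.9%, background 14%). After chaining, 33 of 37 genes had equal numbers of clusters (89.2%, against 80.1% of all genes with a peak). The span of the main cluster, which was added after the peaks were seen, is set by the outermost peaks and is 0 for a cluster of 1 peak, as for Atg4d in the DOP list and Pik3c3 in the vehicle list. Its median was 697 bp in the DOP list and 646 bp in the vehicle list, against 547 and 522 bp over all genes with a peak within 2 kb in both lists. Over those genes the difference, DOP minus vehicle, ran from -681 bp at the 5th percentile to 764 bp at the 95th. It was -888 bp at Rb1cc1, -833 bp at Atg14 and -809 bp at Lamp1, while 25 of 37 genes differed by 200 bp or less. The span was narrower in the DOP list by over 200 bp at 9 genes (24.3%, against 18.7% of all genes with a peak within 2 kb in both lists). The span was wider by over 200 bp at 3 genes (8.11%, against 22.2%). The 9 genes were Rb1cc1, Atg14, Lamp1, Atg4d, Atg12, Atg9a, Atg4a, Gabarapl2 and Nbr1, and the 3 were Atg3, Pik3c3 and Tfeb. Each of the 9 genes had a vehicle-only peak, so that the span is no independent check of the counts. Those of Nbr1 and Atg4a were nearest to Brca1 and Psmd10, and the downstream one of Rb1cc1 to 4732440D04Rik. Without peaks of a score under 100, 8 genes were narrower and 2 wider, and Atg14 was not among the 8, with spans of 133 and 91 bp.

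**Figure D4:**
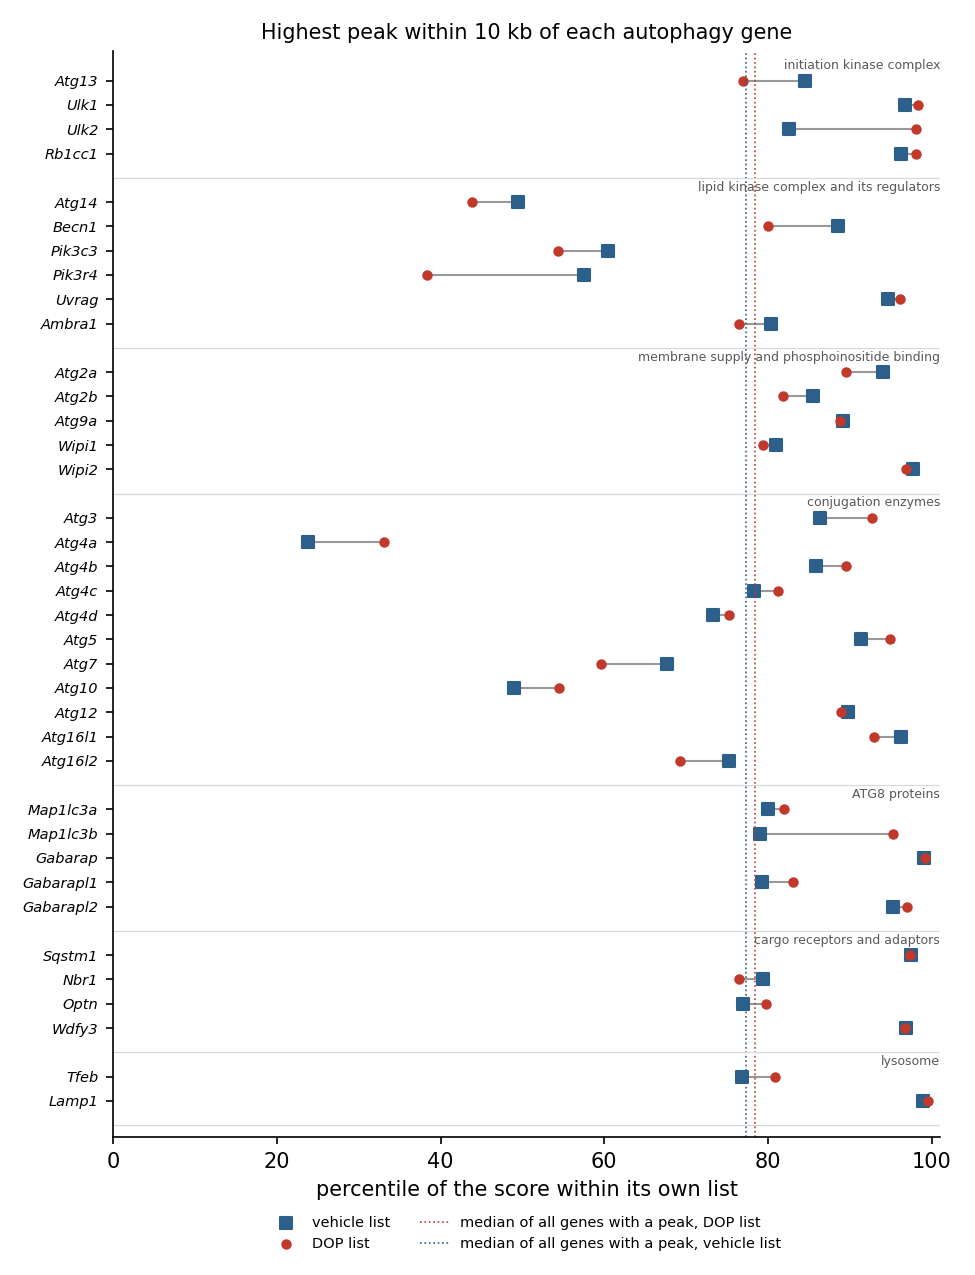
Score percentile, within its own list, of the highest peak within 10 kb of each gene (x axis), for the DOP list (red circles) and the vehicle list (blue squares), by gene within its role (y axis). Dotted lines mark the medians of all genes with a peak, 78.4 in the DOP list and 77.3 in the vehicle list, and Pik3r4, Map1lc3b and Ulk2 show the longest gaps.

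The median rank of the highest peak was similar in the lists, while single genes moved both ways. Over the 37 genes its median percentile was 83 in the DOP list (range 33.1 to 99.5) and 84.5 in the vehicle list (range 23.8 to 99.1), against 78.4 and 77.3 over all genes with a peak. The median difference between the lists was 0.0436 percentile points, with single genes from -19.2 to 16.2, and 0.627 over all genes. A rank within a list cannot show a shift shared by all its peaks. With nearest starts only, the order of the medians of the highest peak turned, to 81.8 in the DOP list and 81 in the vehicle list. The summed score, ranked among all genes, had a median percentile of 59.3 in the DOP list and 60.6 in the vehicle list. The list-only peaks had median percentiles of 34.4 in the DOP list and 37.5 in the vehicle list, against 22 and 22.6 for all such peaks near genes, and the shared peaks had medians of 62.1 and 65.3, against 61.3 and 59.7. Above percentile 50 stood 4 of the 11 DOP-only peaks (36.4%, background 15.3%) and 5 of the 15 vehicle-only peaks (33.3%, background 17.9%). The 4 were those of Wdfy3 and Atg3 and the pair in the window of Gabarap, and the 5 were those of Rb1cc1 (a pair), Lamp1, Atg12 and Wdfy3. The peak of Atg3, the pair of Gabarap and the downstream peak of Rb1cc1 were nearest to starts of other genes. The Wdfy3 peaks of the lists had centres only 216 bp apart.

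Several of the genes share their promoter with a neighbour, so that a peak upstream of the start can belong to either. A start of another gene on the opposite strand lay within 1 kb upstream of 8 of the 37 genes (21.6%), and of 16.5% of all genes with a peak. These were the starts beside Atg2b, Atg3, Atg4a, Atg4b, Atg12, Atg13, Sqstm1 and Nbr1. Of the 123 DOP peaks 27 were nearest to another gene, as were 27 of the 130 vehicle peaks. The highest peak within the window belonged to another gene's start at 5 members in the DOP list and at 4 in the vehicle list. The same shares over all genes were not taken, so whether these counts are unusual cannot be told.

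Binding words of factors known for the control of autophagy genes were searched on both strands in the same sequences: CACGTG, the core of the E-box bound by TFEB and related factors; its extended form TCACGTGA, which contains it; and GTAAACA, bound by forkhead factors. CACGTG was in 1 of 123 DOP intervals and 1 of 130 vehicle intervals, against 3.41% and 3.43% of all intervals near genes. Those were the intervals of Nbr1 that also held TCACGTGA, a word found in 0.179% and 0.159% of all intervals. GTAAACA was in 6 DOP and 5 vehicle intervals, against 1.44% and 1.43% of all. They belonged to Ulk1, Nbr1, Wipi1 and Lamp1 in both lists and to Uvrag and Ambra1 in the DOP list. The vehicle intervals of Ulk1 with this word overlapped each other, and those of Nbr1 in both lists were nearest to Brca1. The Uvrag and Ambra1 intervals overlapped vehicle peaks that lacked the word, with centres 142 and 13 bp away. The Nbr1 interval of the vehicle list is shown for the extended word, in capitals, on the plus strand of mm9, and the DOP interval, 150 bp downstream, holds the same copy.
Nbr1, vehicle list, percentile 31.8, chr11:101414674-101414873: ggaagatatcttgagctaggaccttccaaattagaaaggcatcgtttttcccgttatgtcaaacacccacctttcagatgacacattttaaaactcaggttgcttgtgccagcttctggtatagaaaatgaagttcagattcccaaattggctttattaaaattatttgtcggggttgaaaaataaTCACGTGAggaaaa

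In the windows from 250 bp before to 50 bp after each start CACGTG was present at 5 of the 37 genes, namely Atg3, Atg5, Atg14, Gabarap and Lamp1. Of all 46015 such windows 7.67% held it, and 5 of the 97 windows of the autophagy genes did. TCACGTGA was present at Atg3 alone (1.15% of all windows), and the forkhead word GTAAACA in windows of Becn1, Atg4b and Atg16l2 (6 of the 97 windows, 4 of them overlapping windows of Becn1, against 3.05% of all windows). Lamp1 held 4 copies of CACGTG, whose leftmost bases lie at -35, -19, -2 and 11 bp from the start, a number reached by 7 of 22359 genes. These copies lie between the flanking H3K9ac peaks of Lamp1, centred at -246 and 388 bp in the DOP list. The sequences before the starts of Lamp1 and Atg3 are shown for these words, in capitals, on the plus strand of mm9, which is the strand of both genes. They were chosen after the words had been counted.
Lamp1, up to the base before the start, chr8:13158885-13159134: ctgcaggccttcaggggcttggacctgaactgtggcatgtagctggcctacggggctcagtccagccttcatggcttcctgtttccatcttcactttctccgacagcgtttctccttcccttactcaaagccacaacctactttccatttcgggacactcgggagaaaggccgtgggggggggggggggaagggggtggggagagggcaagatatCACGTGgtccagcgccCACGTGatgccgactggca
Atg3, up to the base before the start, chr16:45158820-45158897: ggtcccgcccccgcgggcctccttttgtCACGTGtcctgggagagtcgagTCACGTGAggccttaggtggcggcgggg

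A wider list of the pathway held 59 genes of autophagy regulation, selective autophagy, fusion and lysosomal function, of which 58 were matched to a single gene of the annotation. Peaks were present in both lists at 56 of the 58, and Tfec and Lamp3 had none in either. More DOP peaks were found at 16 genes, fewer at 11 and equal numbers at 29, or 28.6%, 19.6% and 51.8% of the 56, against 32.5%, 28.5% and 39% of all genes with a peak. A difference of 3 or more was seen at Prkaa1, Rheb and Mcoln1, in favour of the DOP list, which is 5.36% of the 56 against 2.37% of all genes with a peak. Prkaa1, a catalytic subunit of AMP-activated kinase, had 6 DOP and 2 vehicle peaks, all nearest to its own starts, and 4 of the 6 were in the DOP list only. Rheb, the GTPase that activates mTORC1, had 5 and 2, with 2 in the DOP list only. Mcoln1, a lysosomal calcium channel, had 11 and 8, of which 4 in each list were nearest to its own start. Apart from these nearest-start counts, the gaps at Prkaa1, Rheb and Mcoln1 were not recounted under other rules, such as chaining within 1 kb.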

How the data were processed

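H3K9ac chromatin immunoprecipitation was made from 2 DOP-treated and 2 vehicle-treated samples. Per the study's methods alignment to mm9 was made with Bowtie 2 and peaks were placed by GPS, whereas the submitters' processing notes name BWA 0.7.10 and mm9. The authors deposited 1 list per condition, which holds more peaks than the study's text states, for a reason not given in the sources used here. Whether the samples were pooled, the threshold and the use of the IgG sample are not given in the sources used here. The deposited score of each peak has no stated definition, so it was turned into a percentile within its own list (100 highest). Read depth is not known. No peak ran past a chromosome end of NCBIM37 (mm9), and 1 peak was shorter than 200 bp.

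Transcript starts, exons and UTRs of protein-coding genes came from GENCODE vM1, and older names were matched through RefSeq synonyms. Peaks were assigned to genes by the distance of the centre from any start (at most 10 kb), and peaks were shared at an overlap of 1 bp. Members described in full had a difference of 2 or more peaks, a list-only peak above percentile 50, or the highest or lowest rank. Pik3r4 and Map1lc3b met none of these and were described for the largest downward and upward shifts in rank. Single peaks of other members (such as Wipi2, Sqstm1, Ulk1, Uvrag and Ambra1) were chosen after their values were seen. Further pathway genes were named at a difference of 3 or more, and Atg101 as a subunit of the initiation complex after its values were seen. The members, lists and rules were chosen with earlier results of these data known. The functions were tested on simulated data, with 6 of 6 planted answers recovered. Alternatives were windows of 5 and 1 kb, protein-coding transcripts, nearest starts only, the top 50% by score, scores of at least 100, other rules for sharing, chaining within 1 kb, and GC content over 500 bp on either side. Python 3.11.15, pandas, numpy, scipy, pysam, matplotlib and samtools were used.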

Additional observations from a re-analysis of the deposited data

How the results depend on the processing

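All 37 genes had a peak in each list under every alternative run for that count except the top 50% of each list, where 34 had one in the DOP list and 34 in the vehicle list. The numbers of peaks and of genes moved with the rules. With windows of 5 and 1 kb, 4 and 3 genes held more DOP peaks and 12 and 11 held fewer. No shares of all genes were taken for these windows or for the top 50%, so these splits have no background. The 1-kb window left 6 DOP-only and 13 vehicle-only peaks. Among the top 50% of each list 76 DOP and 80 vehicle peaks remained, 9 of each in that list only, and 8 genes held more and 9 fewer DOP peaks, in place of 7 and 12. A reciprocal overlap of 50% gave 30 DOP-only and 33 vehicle-only peaks, centres within 500 bp gave 5 and 5, and centres within 1 kb gave 2 and 2. Chained within 1 kb, 2 genes had more DOP clusters, 2 had fewer and 33 had equal numbers, and the difference was 0 at each of Atg2a, Atg14, Gabarap, Lamp1 and Rb1cc1. The same deposited lists were used throughout, and only the rule of counting changed between these settings. The difference at Gabarap was 0 with windows of 5 and 1 kb and with nearest starts only, that at Atg2a was 0 in the top 50%, and that at Atg14 was 0 in the top 50% and at scores of at least 100. The differences at these 5 genes changed sign under no alternative. With nearest starts only, the median percentile of the highest peak was 81.8 in the DOP list and 81 in the vehicle list, in place of 83 and 84.5, so that the order of the medians turned. Of 106 values recomputed, 2 of them for the span, which was added after seeing the data, 79 stayed within 1.5 times the reported count or within the interval of the reported median.

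No paired analysis was possible because each condition is 1 list without replicates, so that leaving out a replicate was not possible either. Neither the depth nor the definition of the score is known, and how far the placing of peaks enters a difference between the lists was not tested.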
